A study of Mus musculus with 12 samples.

Results

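Interferon-stimulated genes are the genes that cells switch on when type I or type II interferon reaches its receptor. Here they were followed as a list of 41 mouse genes, written down by symbol, of which those with a mean regularized log2 (rlog) value of at least 3 across 6 RNA-seq libraries were tested. All 41 were in the deposited table of 41444 genes. The limit on the mean left 28 of them, among 11536 genes tested in all, and the other 13 are given by their values alone. Just inside the limit were Iigp1 with a mean of 3.12 and Isg15 with a mean of 3.25, and just outside it were Ifit3 with a mean of 2.64 and Irf7 with a mean of 2.51.

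The libraries came from B cell acute lymphoblastic leukemia (B-ALL) cells, made by transforming bone marrow pre-B cells of Ctnnb1 fl/fl mice with the oncogene BCR-ABL1. Ctnnb1 encodes β-catenin, and its floxed alleles are deleted only where Cre is active. All cells compared here carried the ERT2 vector without Cre, so β-catenin was kept, and all received 4-hydroxytamoxifen (4-OHT) at 1 µM for 2 days. The control group of 3 libraries received nothing else, and the treated group of 3 libraries also received 40 nM LY2090314, a small-molecule inhibitor of glycogen synthase kinase 3 (GSK3), for 1 day as the labels give it. The study's text gives a shorter exposure. The series holds 12 samples in 4 groups, and the groups with CreERT2 are not analysed here. Replicates are described as separate mice, but the column names of treated libraries 1 and 2 begin with the same number and carry the suffixes A and B. What that number stands for is not stated. The treated group may thus hold fewer than 3 mice, and p-values measure the spread between these libraries. The cells are an oncogene-driven pre-B cell culture, grown outside the host.

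Type I interferons act through a receptor built from IFNAR1 and IFNAR2, whose kinases activate STAT proteins. STAT2 and IRF9 belong to the complex ISGF3, which binds the interferon-stimulated response element (ISRE) in front of antiviral genes. Type II interferon acts through IFNGR1 and IFNGR2 and the gamma-activated sequence (GAS), and Irf1 is among its direct targets. Many interferon-stimulated genes are also expressed at a basal level without added interferon.

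Promoter sequences of 5 members are shown because these genes stand for the different outcomes described here. Irf1 and Igtp were among the largest rises, Bst2 was the largest fall, Gbp2 was a GTPase gene that fell while Igtp rose, and Isg15 is the namesake of the response and was not called. Each sequence runs 5′ to 3′ in the direction of transcription, from 250 bases before the start site to 50 after it, and comes from RefSeq on build GRCm38.p6. Capitals mark ISRE letters (GAAA, any 2 bases, then GAAA) and GAS letters (TTCNNNGAA), searched on both strands.
Irf1: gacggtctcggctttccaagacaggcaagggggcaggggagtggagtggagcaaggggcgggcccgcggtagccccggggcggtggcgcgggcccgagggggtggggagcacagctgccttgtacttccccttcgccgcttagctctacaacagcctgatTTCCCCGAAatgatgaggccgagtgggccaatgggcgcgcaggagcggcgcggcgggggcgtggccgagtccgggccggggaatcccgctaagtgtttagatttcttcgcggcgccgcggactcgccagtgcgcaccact
Igtp: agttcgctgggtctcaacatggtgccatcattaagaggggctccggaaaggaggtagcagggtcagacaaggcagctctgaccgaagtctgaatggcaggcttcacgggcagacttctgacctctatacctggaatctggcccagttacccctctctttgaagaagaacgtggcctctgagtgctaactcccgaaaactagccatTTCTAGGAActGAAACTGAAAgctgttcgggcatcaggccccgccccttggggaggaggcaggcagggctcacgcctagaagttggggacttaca
Bst2: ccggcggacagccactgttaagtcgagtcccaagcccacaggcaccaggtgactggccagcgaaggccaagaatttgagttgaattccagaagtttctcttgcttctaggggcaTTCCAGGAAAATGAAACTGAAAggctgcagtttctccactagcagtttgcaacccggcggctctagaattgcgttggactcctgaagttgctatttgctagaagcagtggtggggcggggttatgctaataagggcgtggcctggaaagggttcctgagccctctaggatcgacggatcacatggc
Gbp2: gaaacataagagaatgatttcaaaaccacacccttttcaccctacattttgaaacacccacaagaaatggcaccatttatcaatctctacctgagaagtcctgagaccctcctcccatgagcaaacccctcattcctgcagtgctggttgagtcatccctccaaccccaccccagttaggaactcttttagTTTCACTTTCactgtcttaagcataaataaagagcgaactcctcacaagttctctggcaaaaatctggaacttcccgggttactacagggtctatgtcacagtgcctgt
Isg15: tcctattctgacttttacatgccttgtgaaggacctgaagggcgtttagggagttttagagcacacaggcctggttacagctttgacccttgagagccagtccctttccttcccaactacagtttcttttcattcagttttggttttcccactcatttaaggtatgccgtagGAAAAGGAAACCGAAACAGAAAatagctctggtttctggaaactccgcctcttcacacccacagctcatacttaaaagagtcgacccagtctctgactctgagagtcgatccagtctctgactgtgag
The Irf1 window shown is chr11:53769764-53770063 on the plus strand and holds GAS letters that begin 90 bases before the start site. A second Irf1 window, chr11:53770223-53770522, held no match to either motif. The Igtp window, chr11:58199306-58199605 on the plus strand, holds GAS letters at 45 bases and ISRE letters at 34 bases before the start. In the Bst2 window, chr8:71537423-71537722 on the minus strand, GAS letters at 136 bases run into a pair of ISRE matches at 130 and 124 bases. The Gbp2 window, chr3:142620413-142620712 on the plus strand, holds ISRE letters on the other strand at 59 bases before the start. The Isg15 window, chr4:156200769-156201068 on the minus strand, holds 3 overlapping ISRE matches at 78, 72 and 66 bases before the start.

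In the RefSeq table, 30 of the 41 genes matched, with 39 windows among them. Zbp1, Iigp1, Parp9 and Parp14, which rose, and Ifi27, which fell, were among the genes without a window and were not searched. ISRE letters were found in 15 of the 39 windows (38.5%), against 3.44% of all 32851 windows of the same length. GAS letters were found in 7 of the 39 windows (17.9%), against 8.3% of all windows. CTTTGAT, a sequence bound by the TCF/LEF partners of β-catenin, was found in 0 of the 39 windows, against 3.73% of all windows. At that share few matches would be found in 39 windows, so the 0 does not set the members apart. Matches that overlap each other within a window were counted as 1 window. Among genes with a window, ISRE letters were present in 4 of 10 that rose, 3 of 6 that fell, 3 of 6 that were tested and not called, and 4 of 8 below the limit. The letters were thus found in each of the 4 outcomes. A match describes the letters of a window and is not evidence of binding, nor does the lack of a match show that binding is absent.

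The members moved in different directions with LY2090314. Of the 28 tested, 14 rose and 7 fell by limma with Benjamini-Hochberg adjustment over all genes tested and a threshold of 0.05. The remaining 7 did not pass. Among the 14 that rose was Iigp1, whose control mean of 2.94 lay under the limit, so it entered the test through the treated libraries. Across all genes tested, 50.1% were called in either direction, 24.8% higher and 25.3% lower. Among the members 75% were called, 50% higher and 25% lower. The list was chosen with earlier results of these data known, so its shares describe the listed genes only. A log2 difference of at least 1 in size together with the threshold was met by 3 members, against 6.01% of all genes tested. The control and treated libraries did not overlap in 22 of 28 members, against 58.6% of all genes. The median log2 difference of the members was 0.23 and that of all genes tested 0.01, with 18 members above 0 and 10 below. The exact permutation test of 3 libraries against 3 cannot give a p-value under 0.10, so for single genes only the fit across all genes is used.

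**Figure D1:**
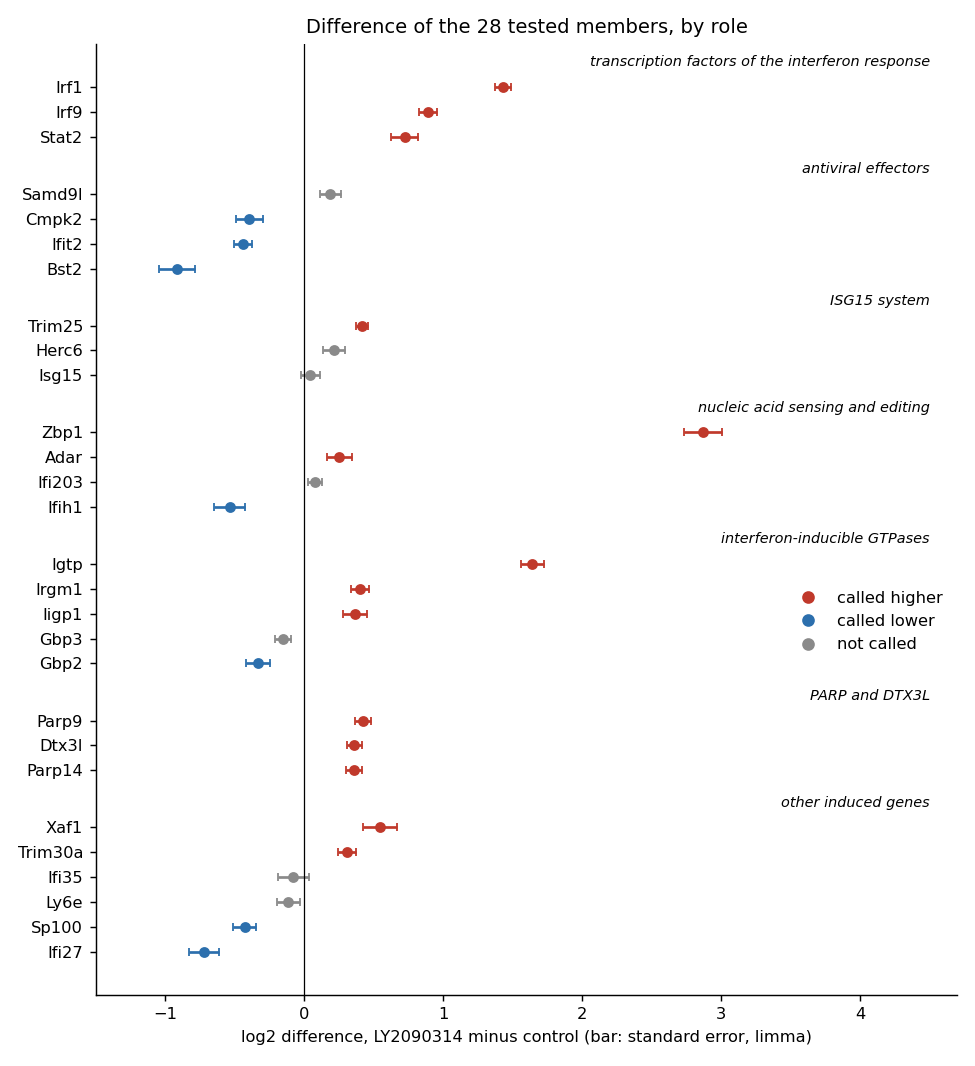
Log2 difference of each of the 28 tested members, LY2090314 minus control, with the standard error from limma as a bar, grouped by role. Red points passed the test as higher, blue points as lower, and gray points did not pass. The transcription factors and the PARP and DTX3L genes lie to the right of 0, the called antiviral effectors lie to the left, and Zbp1 has the largest difference at 2.87.

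The 3 tested transcription factors of the response rose together (100%, against 24.8% of all genes tested). Irf1, an activator of antiviral and antigen presentation genes (chr11:53770014-53778374, plus strand), had rlog values of 9.08, 9.20 and 9.19 in control libraries and 10.61, 10.59 and 10.56 with LY2090314. Every treated library lay above every control library by far more than the spread within either group. Irf1 rose by 1.43 on the log2 scale (standard error 0.05, limma adjusted p = 7.2e-07).

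Irf9, the DNA-binding subunit of ISGF3 (chr14:55603571-55610030, plus strand), had values of 7.79, 7.84 and 7.88 in control libraries and 8.71, 8.75 and 8.73 with treatment. The groups did not overlap, and the rise was 1.86-fold (log2 difference 0.89, standard error 0.07, limma adjusted p = 2.1e-05). The Irf9 gene shares exon sequence on the same strand with Rnf31, whose mean was 9.30 in control and 9.31 in treated libraries. Stat2, the subunit of ISGF3 that carries its activation domain (chr10:128270559-128292849, plus strand), had values of 8.63, 8.77 and 8.47 in control libraries. With treatment they were 9.43, 9.40 and 9.20, again without overlap. The rise was 1.65-fold (log2 difference 0.72, standard error 0.10, limma adjusted p = 0.00050). Irf7, which drives production of type I interferon in infected cells, stayed below the limit with values of 2.36, 2.49 and 2.45 in control and 2.55, 2.58 and 2.61 in treated libraries. The groups did not overlap for Irf7, and in the fit without a limit its log2 difference of 0.15 did not pass (limma adjusted p = 0.12).

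Of the 12 listed antiviral effectors only 4 were tested, of which 3 fell (75%, against 25.3% of all genes tested) and 0 rose. The other, Samd9l, had a positive difference that did not pass. The falls describe the 3 genes only, since values of the 8 below the limit are too low to give a direction for the group. When the limit was left out, their fitted differences lay between 0.0032 for Mx1 and 0.40 for Ifit1, and only Ifit1 passed. Bst2, also called tetherin, holds budding virus particles at the cell surface (chr8:71534255-71537456, minus strand). Its values were 6.27, 6.20 and 6.43 in control and 5.26, 5.26 and 5.63 in treated libraries, so the highest treated library lay below the lowest control library. Bst2 fell by 0.92 on the log2 scale, which makes control cells 1.89-fold higher (standard error 0.13, limma adjusted p = 0.00066). This was the largest fall among the members.

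Ifit2, which binds viral RNA and limits its translation (chr19:34550694-34576419, plus strand), had values of 9.21, 9.25 and 9.14 in control and 8.83, 8.74 and 8.71 in treated libraries. All treated libraries were below all control libraries. Ifit2 fell by 0.44 in rlog units (standard error 0.06, limma adjusted p = 0.00078). Cmpk2, a mitochondrial nucleotide kinase, fell by 0.39 (limma adjusted p = 0.012). Samd9l, an inhibitor of translation in infected cells, had a difference of 0.19 and overlapping groups (limma adjusted p = 0.077).

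The other 8 listed antiviral effectors were below the limit, and some of them lie near Ifit2 or Cmpk2 in the genome. Ifit3 lies 7112 bases from Ifit2 and had a mean of 2.60 in control and 2.68 in treated libraries, while Ifit1 had a mean of 1.88 in control and 2.28 in treated libraries. Rsad2, the antiviral enzyme viperin, lies 12752 bases from Cmpk2 and had means of 0.12 and 0.22. Mx1 and Mx2, GTPases that block virus replication, had group means between -2.12 and -0.51. Oas1a, an oligoadenylate synthetase that activates RNase L, had means of 1.70 and 1.77. Its relatives Oasl1 and Oasl2 had means of -0.38 and -0.33, and of 2.04 and 2.10. At such values rlog draws a difference strongly towards 0, so differences of these 8 genes are understated. When the limit on the mean was left out of the fit, Ifit1 was the only one of the 13 genes below it to pass (log2 difference 0.40, limma adjusted p = 0.045).

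**Figure D2:**
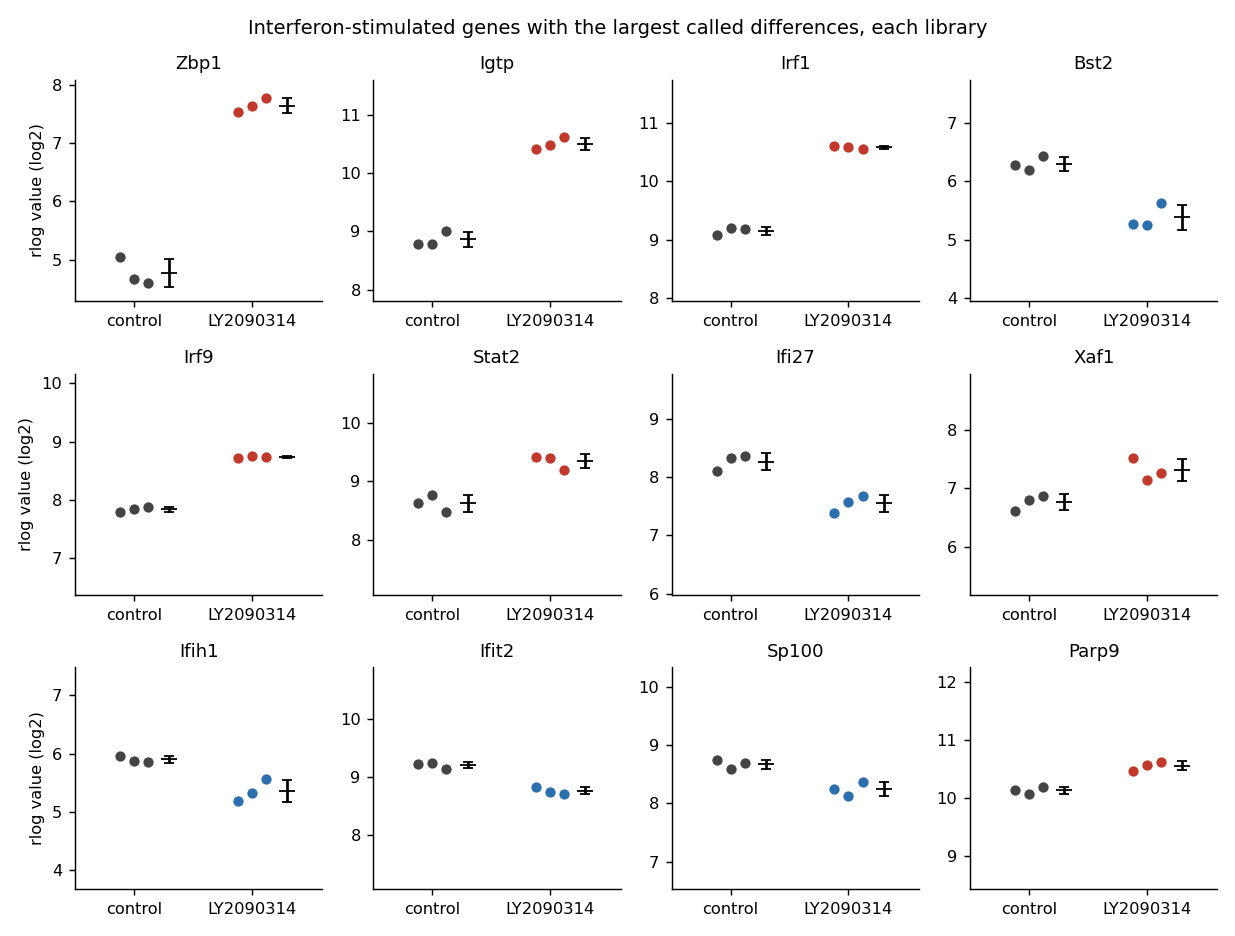
Rlog values (log2) of the 12 members with the largest called differences, in each of the 3 control libraries (dark gray) and the 3 libraries with LY2090314 (red where higher, blue where lower). Black marks give the group mean with its SD, all panels span the same log2 range around their own center, and in none of the 12 do the groups overlap.

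The ISG15 system held mostly small differences. Isg15, a ubiquitin-like protein that is conjugated to newly made proteins, had values of 3.19, 3.29 and 3.22 in control and 3.24, 3.28 and 3.31 in treated libraries. The groups overlapped, and the log2 difference of 0.05 did not pass (standard error 0.07, limma adjusted p = 0.62). Its sign turned to -0.051 under quantile normalization. Usp18, the protease that removes ISG15 and restrains the type I receptor, was below the limit with values of 2.38, 2.28 and 2.33 in control and 2.15, 2.22 and 2.23 in treated libraries. The groups did not overlap for Usp18, and in the fit without a limit its log2 difference of -0.13 did not pass (limma adjusted p = 0.12). Herc6, the mouse ligase for ISG15, had a difference of 0.22 with no overlap but did not pass (limma adjusted p = 0.053). Trim25, a ubiquitin ligase that acts with the RNA sensor RIG-I, was the member of this group that rose. Its means were 11.51 ± 0.025 (SD, n = 3) in control and 11.93 ± 0.023 (SD, n = 3) in treated cells, a 1.33-fold rise with limma adjusted p = 0.00013.

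Sensing and editing genes held the largest rise and a fall side by side. Zbp1, a sensor of Z-form nucleic acids that can start necroptosis (chr2:173206612-173218923, minus strand), had values of 5.04, 4.67 and 4.60 in control libraries and 7.52, 7.63 and 7.77 with LY2090314. The groups were separated by more than 2 log2 units. Zbp1 rose 7.31-fold (log2 difference 2.87, standard error 0.13, limma adjusted p = 2.0e-06). Ifih1, which encodes the sensor of long double-stranded RNA MDA5 (chr2:62595798-62646255, minus strand), had values of 5.97, 5.87 and 5.86 in control and 5.20, 5.33 and 5.57 in treated libraries. The groups did not overlap, although the third treated library lay closer to the controls. Ifih1 fell by 0.54 in rlog units (standard error 0.11, limma adjusted p = 0.0052).

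Adar, an enzyme that edits double-stranded RNA and keeps it from MDA5, had values of 10.53, 10.47 and 10.34 in control and 10.76, 10.83 and 10.51 in treated libraries. The third treated library fell within the control range. The log2 difference of 0.25 passed narrowly (standard error 0.09, limma adjusted p = 0.048) and was the only member call with overlapping groups. The call was lost in 9 of 13 alternative fits. Across all 13 of them, limma adjusted p ranged from 0.0037 to 0.15. Adar shares exon sequence with Chrnb2 on the other strand, whose mean was 2.90 in control and 3.19 in treated libraries. Ifi203, a PYHIN family gene that shares exon sequence with its relative Mndal, had a difference of 0.08 (limma adjusted p = 0.23). Ifi204, another gene of that family, had means of 0.34 and 0.43 and was not tested.

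Of the 5 interferon-inducible GTPase genes, 3 rose (60%) and 1 fell (20%), against 24.8% and 25.3% of all genes tested. Igtp, also known as Irgm3, belongs to the immunity-related GTPases that act at the membranes of pathogen vacuoles (chr11:58199556-58207591, plus strand). Its values were 8.79, 8.79 and 9.01 in control and 10.41, 10.49 and 10.61 in treated libraries, with no overlap. Igtp rose 3.12-fold (log2 difference 1.64, standard error 0.08, limma adjusted p = 2.6e-06). It shares exon sequence on the same strand with Irgm2, so reads of the pair may be divided between them, and Irgm2 itself had means of 7.78 and 8.58 (log2 difference 0.80, limma adjusted p = 0.00013).

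Irgm1, a regulator of the family, rose 1.32-fold (log2 difference 0.40, limma adjusted p = 0.0015). Iigp1, an effector of the family, rose 1.29-fold (log2 difference 0.37, limma adjusted p = 0.0089). Its control mean of 2.94 was under the limit and its treated mean of 3.31 above it, so it entered the test through the treated libraries. The guanylate-binding proteins, larger GTPases that coat and break such vacuoles, were represented by a pair of genes. Gbp2 fell by 0.33 in rlog units (standard error 0.09, limma adjusted p = 0.014), with control values between 9.82 and 9.94 and treated values between 9.42 and 9.73. Gbp3, 47393 bases away on the same strand, had a difference of -0.15 without overlap and did not pass (limma adjusted p = 0.058).

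Members of these families outside the list were added after their values had been seen. With the members Igtp, Irgm1 and Iigp1 counted in, all 7 immunity-related GTPase genes tested rose, against 24.8% of all genes tested. Their median log2 difference was 0.79, with a range from 0.37 for Iigp1 to 1.83. The highest of them was Tgtp1 at 1.83 (limma adjusted p = 3.7e-06), whose near copy Tgtp2 had 0.79, so the division of reads within that pair is uncertain. Ifi47 rose by 0.44 (limma adjusted p = 0.00015). Of 7 guanylate-binding protein genes, the members Gbp2 and Gbp3 included, 5 were tested. The share called was 80%, against 50.1% of all genes tested, with 2 higher and 2 lower. Gbp9 rose by 2.27 (limma adjusted p = 2.4e-06) and Gbp4 by 1.19 (limma adjusted p = 0.00022), while Gbp2 and Gbp7 fell, Gbp7 by 0.22 (limma adjusted p = 0.0073). Genes of both directions were thus found within this family.

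The 3 genes of ADP-ribosylation rose by like amounts (100%, against 24.8% of all genes tested). Parp9 and Dtx3l encode partners in a complex that joins ADP-ribosylation to ubiquitination, and they lie head to head on opposite strands of chromosome 16 with 681 bases in common. Parp9 (chr16:35938470-35972605, plus strand) had values of 10.15, 10.07 and 10.19 in control and 10.47, 10.58 and 10.62 in treated libraries. The groups did not overlap, and Parp9 rose 1.34-fold (log2 difference 0.42, standard error 0.06, limma adjusted p = 0.00069). Dtx3l rose by 0.36 (limma adjusted p = 0.0011). Parp14, a mono-ADP-ribosyltransferase on the same chromosome, rose by 0.36 as well (limma adjusted p = 0.0014). Whether the counting used strand is not stated for these files, so reads in the shared stretch of Parp9 and Dtx3l cannot be assigned with certainty.

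The other induced genes were divided, with 2 of 6 tested higher and 2 lower (33.3% each). Those shares lay near the 24.8% and 25.3% of all genes tested. Xaf1, an antagonist of the apoptosis inhibitor XIAP (chr11:72301629-72313733, plus strand), had values of 6.62, 6.80 and 6.87 in control and 7.52, 7.15 and 7.27 in treated libraries. The groups did not overlap, and Xaf1 rose 1.46-fold (log2 difference 0.55, standard error 0.12, limma adjusted p = 0.0066). Trim30a, a TRIM protein that restrains inflammatory signaling, rose by 0.31 (limma adjusted p = 0.0041). Ifi27 (chr12:103434211-103440239, plus strand) had values of 8.11, 8.32 and 8.37 in control and 7.38, 7.58 and 7.68 in treated libraries. It fell without overlap by 0.72 in rlog units (standard error 0.11, limma adjusted p = 0.00099). Sp100, a scaffold of PML nuclear bodies (chr1:85649988-85709998, plus strand), had values of 8.74, 8.59 and 8.69 in control and 8.25, 8.12 and 8.36 in treated libraries. All treated libraries lay below the controls, and Sp100 fell by 0.43 (standard error 0.08, limma adjusted p = 0.0038). Ifi35 and Ly6e, a lipid-anchored surface protein, had differences of -0.08 and -0.12 that did not pass (limma adjusted p = 0.58 and 0.28). Ifi44 and Rtp4 were below the limit, with group means between -0.78 and -0.56.

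None of the interferon genes themselves reached the limit. Of 21 interferon ligand genes in the table, 19 were listed at 0 in all 6 libraries and the other 2, Ifnab and Ifnz, had values below 0 on the log2 scale. Of all genes in the table, 21786 were listed at 0 in these libraries, and without read counts a listed 0 is not shown to be a measured absence. Among 10 tested receptor, kinase and STAT genes, 4 rose, 1 fell and 5 did not pass, with a median log2 difference of 0.13. The share called, 50%, was that of all genes tested (50.1%), so the list did not stand apart in that count. By direction, 40% were higher and 10% lower, against 24.8% and 25.3% of all genes tested. Ifnar1 rose by 0.35 (limma adjusted p = 0.017), whereas its partner Ifnar2 had 0.03 (limma adjusted p = 0.81). In the type II receptor, Ifngr2 fell by 0.84 (limma adjusted p = 5.2e-05), from control values between 9.01 and 9.20 to treated values between 8.23 and 8.33, and Ifngr1 rose by 0.17 (limma adjusted p = 0.044). Stat3, which transmits cytokine signals, rose by 0.45 (limma adjusted p = 0.0010). Jak1, a kinase of both receptors, had a difference of 0.05 (limma adjusted p = 0.49). Tyk2 was listed at 0 in all libraries. As Tyk2 is a kinase gene of broad expression, a listed 0 may be a value that was not estimated, and this holds for the ligand genes too.

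Of 16 tested sensors and adaptors upstream of interferon, 9 rose and 2 fell, with a median log2 difference of 0.40 and 68.8% called against 50.1% of all genes tested. Dhx58, the RIG-I-like receptor LGP2, rose by 1.07 (limma adjusted p = 5.4e-05). The DNA sensor gene Aim2 rose by 0.90 (limma adjusted p = 0.00013), Tmem173, which encodes the adaptor STING, by 0.78 (limma adjusted p = 8.1e-05) and Ticam1, the adaptor TRIF, by 0.75 (limma adjusted p = 0.00048). Each of these genes was higher in all 3 treated libraries than in any control library. Tlr9, the endosomal DNA receptor of B cells, fell by 1.56 (limma adjusted p = 1.0e-05) and Traf3, an adaptor ubiquitin ligase, by 0.84 (limma adjusted p = 0.0035). Irf3, which switches on interferon genes, had -0.26 and overlapping groups (limma adjusted p = 0.19). In a family gathered after its values were seen, the genes of the RIG-I-like receptors and their adaptor MAVS moved apart. Ddx58, which encodes RIG-I, rose by 0.54 (limma adjusted p = 0.00017) and Mavs by 0.35 (limma adjusted p = 0.0021), while Ifih1 fell as given above.

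Of 8 other genes of the IRF family and its cofactors tested, 2 rose and 5 fell, with a median of -0.28 and 87.5% called against 50.1% of all genes. Irf4, a regulator of B cell differentiation, rose by 1.41 (limma adjusted p = 7.6e-07), with control values between 12.69 and 12.78 and treated values between 14.11 and 14.21. The cofactor gene Irf2bp2 rose by 0.76 (limma adjusted p = 0.00014). Irf8, which shares target sites with Irf4, fell by 0.49 (limma adjusted p = 9.3e-05), Irf2, a repressor at Irf1 target sites, by 0.43 (limma adjusted p = 0.00029), Irf5 by 0.30 (limma adjusted p = 0.0040) and the cofactor gene Irf2bpl by 0.60 (limma adjusted p = 4.7e-05). Thus the rises among IRF genes covered Irf1, Irf4 and Irf9, and the falls Irf2, Irf5 and Irf8.

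Negative regulators of interferon signaling also moved both ways, with 3 of 10 tested higher, 4 lower, a median of -0.14 and 70% called against 50.1% of all genes. Socs1, the inhibitor of JAK kinases, had values between 6.22 and 6.78 in control and between 7.82 and 8.12 in treated libraries and rose 2.80-fold (log2 difference 1.48, limma adjusted p = 0.00012). Its relative Socs3 fell by 0.57 (limma adjusted p = 0.0017). Nlrc3, which restrains STING, fell by 1.55 (limma adjusted p = 6.3e-07). Pias4 and Ptpn6 rose by 0.32 and 0.19, and Cish and Ptpn11 fell by 0.38 and 0.22.

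A second list of interferon-stimulated genes, none of them among the 41, gave 20 of 55 tested higher (36.4%) and 10 lower (18.2%), with a median of 0.10 and a range from -1.08 to 2.27. The share called, 54.5%, lay near the 50.1% of all genes tested, of which 24.8% were higher and 25.3% lower. Beside Gbp9 and Tgtp1, the largest rises were those of Slfn1, a Schlafen gene, by 2.23 (limma adjusted p = 6.6e-07) and Ifitm1, an inhibitor of virus entry, by 1.75 (limma adjusted p = 9.1e-06). The largest falls were those of Ifitm2 by 1.08 (limma adjusted p = 4.4e-05), Rnf213 by 0.96 (limma adjusted p = 0.00011), Ube2l6, the conjugating enzyme for ISG15, by 0.75 (limma adjusted p = 0.00016) and Slfn9 by 0.74 (limma adjusted p = 3.7e-05). Related genes thus stood at opposite ends, as Ifitm1 and Ifitm2 did and as Slfn1 and Slfn9 did. Slfn1 and Iigp1 alike had control means under the limit, so each entered the test, and the count of its list, through the treated libraries.

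**Figure D3:**
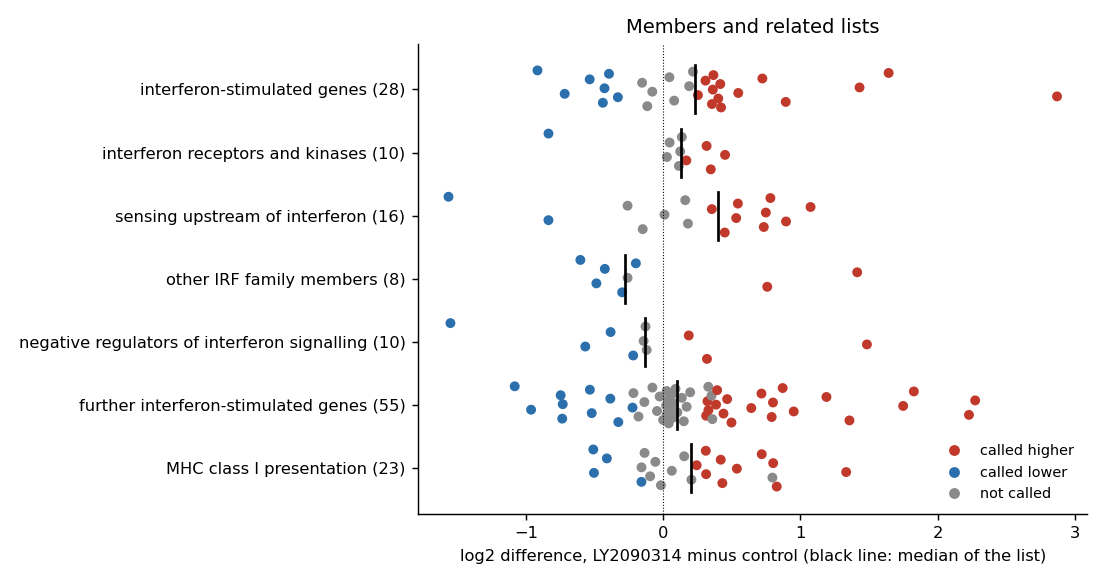
Log2 differences, LY2090314 minus control, of the 28 tested members and of 6 related gene lists, with the number of genes tested in parentheses. Each point is a gene, colored by its call, and the black line is the median of the list, which runs from -0.28 for other IRF family members to 0.40 for sensing upstream of interferon.

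Antigen presentation by MHC class I, a common target of IRF1, gave 10 of 23 tested genes higher, 4 lower, a median of 0.21 and 60.9% called against 50.1% of all genes. B2m, the light chain of class I molecules, had values of 13.39, 13.36 and 13.35 in control and 14.01, 13.99 and 14.27 in treated libraries and rose 1.64-fold (log2 difference 0.72, limma adjusted p = 0.00021). H2-Q6 rose by 1.33, H2-Q4 by 0.83 and H2-Q7 by 0.80, and reads of these near-identical class Ib genes may have been divided uncertainly. The immunoproteasome gene Psmb8 fell by 0.50 (limma adjusted p = 0.0014), and its regulator gene Psme2 fell by 0.41 (limma adjusted p = 0.034). The chaperone gene Calr and the peptidase gene Erap1 fell by 0.51 and 0.16. The peptide transporter gene Tap1 and the immunoproteasome gene Psmb9 had differences of 0.06 and -0.02 (limma adjusted p = 0.37 and 0.84). The light chain gene and these class I genes rose, while the immunoproteasome and transporter genes named here fell or did not pass.

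**Figure D4:**
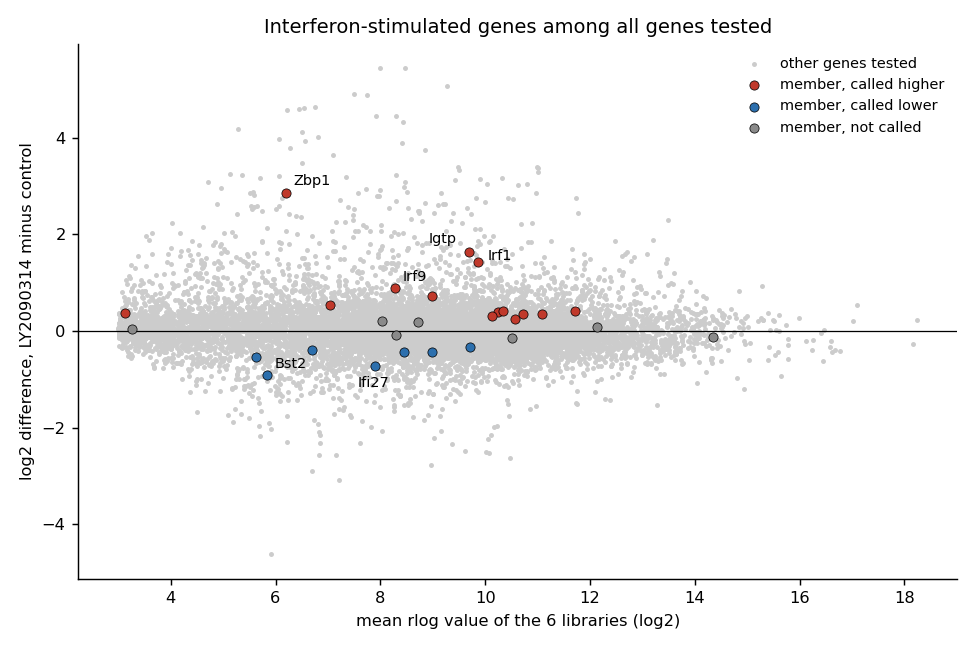
Mean rlog value of the 6 libraries (x axis) against the log2 difference, LY2090314 minus control (y axis), for all 11536 genes tested in light gray and the 28 members in color. Zbp1, Igtp and Irf1 lie past a difference of 1, and the other 25 members lie within the band between -0.92 and 0.89.

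Differences between libraries and other cell types were measured beside these results. As a check of the labels, the β-catenin target gene Axin2 was higher in every treated library, at 6.14 to 6.43 in control and 7.81 to 8.06 in treated libraries. Of 6 tested genes listed for this check, 4 were called higher and 2 lower (100% called, against 50.1% of all genes tested). The third treated library was the farthest from the median of its group in 17 of 28 members, against 52.7% of all genes, and the highest of its group in 18 of 28. B-lineage markers marked the cells, with 10 of 10 above the limit, and 9 of the 10 fell (90%, against 25.3% of all genes tested). The median log2 difference of these markers was -1.05, and 5 of the 10 were called with a difference of at least 1 in size. Their summed level, which the most abundant markers set, was 15.93 to 16.03 in control and 15.49 to 15.68 in treated libraries. Markers of plasmacytoid dendritic cells, which are interferon-producing cells, had 2 of 6 above the limit and summed levels of 5.31 to 5.41 and 6.16 to 6.19, with Klk1 at 0. Among 10 macrophage and monocyte markers 2 were above the limit, with summed levels of 6.13 to 6.32 and 6.61 to 6.71, and Adgre1, C1qa, C1qb, Marco and Mertk were at 0. No T cell, natural killer cell or stromal marker reached the limit, with summed levels between 2.24 and 3.16. Ncr1 of natural killer cells and Col1a2, Col3a1, Lum and Dcn of stromal cells were at 0. A marker listed at 0 still adds to its sum, so sums of lists with such markers do not measure expression. In such bulk libraries fewer cells of a type and less RNA per cell cannot be told apart. The part of these marker levels in the results on interferon-stimulated genes was not tested.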

How the data were processed

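Polyadenylated RNA was sequenced as stranded paired-end libraries. Reads were aligned to GRCm38 with STAR and quantified by Salmon against GENCODE annotation, and DESeq2 1.30.1 was used, all by the authors. They deposited a table of rlog values, which are log2 values of counts scaled by size factors and shrunken towards the mean of the gene where counts are low. Which samples entered the transformation, and whether counting used strand, is not given in the sources used here. No counts are in the files used here, so library depth is unknown, no interval from counting can be given, and the number of libraries and their spread set the precision. Differences of low-expressed genes are understated.

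Columns were matched to groups by name, 3 to ERT2 control cells and 3 to ERT2 cells with LY2090314. The names of the other 6 of 12 columns combine Cre and LY in different spellings and match no single group, so those columns were not used. Replicate numbers 1 to 3 name the libraries in column order.

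Genes with a mean of at least 3 were fitted together in R 4.3.3 by limma 3.58.1, using lmFit, contrasts.fit and moderated variances that follow a trend on the mean level, and p-values were adjusted by Benjamini-Hochberg over all 11536 genes. A gene was called at an adjusted p under the threshold of 0.05. Fold changes are 2 to the power of the rlog difference. An exact permutation test (two-sided) over the 6 libraries was added for each member. The calculations were tested on simulated data. Alternatives were fits without the trend, with robust variances, without a limit on the mean, with a limit of 5, with median centring and with quantile normalization. Further ones averaged the columns whose names begin with the same number, left out each library, or used a minimum log2 difference of 1 or a threshold of 0.01.

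The members and the other gene lists were chosen with earlier results of these data known, and the families of GTPases, Schlafen and Ifitm genes, ISG15 conjugation and RIG-I-like receptors were gathered after their values had been seen. The values in each library are given for the 12 called members with the largest differences and for Irf7, Isg15, Usp18 and Adar. From the other lists, up to 4 called genes with the largest rise and 4 with the largest fall were named, together with central genes of each pathway whatever their value, except a gene of the pathway lists that is not reported here. Symbols were matched to 41157 identifiers. Gene positions are from GENCODE vM21 on GRCm38, and promoter windows of 300 bases from RefSeq on GRCm38.p6. Marker levels are log2 of the sum of 2 to the power of each marker's rlog value.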

Additional observations from a re-analysis of the deposited data

How the results depend on the processing

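The count of members that rose stayed between 13 and 15 under all alternative fits, and the count that fell between 7 and 9, the last without treated replicate 3, when Gbp3 and Ly6e also passed. At a threshold of 0.01 the counts were 13 and 5. With a minimum log2 difference of 1, 693 of all genes tested were called, with 3 members higher and 0 lower and 6 further interferon-stimulated genes higher and 1 lower, since few differences in these data reach that size. Without each library in turn, the median log2 difference of the members ranged from 0.20 to 0.28, and the number of genes called over the whole table from 4741 to 6225. In the 100 bases before the start site, ISRE letters were found in 9 windows (23.1%, against 0.983% of all windows), GAS letters in 3 and TCF/LEF letters in 0. Isg15 turned to -0.051 under quantile normalization (limma adjusted p = 0.59). The side of the threshold and the sign were kept in every alternative fit that tested them by 13 of 14 members that rose, with Adar the exception, by all 7 that fell, and by 2 of 7 not called. Iigp1, among the 13, was not tested with a limit of 5 on the mean, where Herc6 passed instead. Gbp3, Herc6, Ly6e and Samd9l passed in at least 1 of these fits. Of the genes called over the whole table, 49.5% were higher in the fit as reported, 45.7% after median centring and 43.4% after quantile normalization. No paired analysis was possible because the treated columns have names without a replicate number of the titles, so they cannot be paired with control columns. Without read counts, precision cannot be tied to depth, and values under the limit say little about direction.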

Other observations

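Schlafen genes, a family gathered after their values had been seen, had 2 of 6 tested genes higher and 3 lower. The share called was 83.3%, against 50.1% of all genes tested. The ISG15 conjugation genes had 1 of 5 tested higher (the member Trim25) and 1 lower (Ube2l6), with 40% called against 50.1% of all genes tested. The activating enzyme gene Uba7 had a log2 difference of 0.10 (limma adjusted p = 0.53). Nlrc5, a transactivator of MHC class I genes, had values of 5.99, 5.49 and 5.64 in control and 6.81, 7.08 and 5.61 in treated libraries, so the third treated library stood at the level of the controls and the difference of 0.80 did not pass (limma adjusted p = 0.095). Ly6c2, listed here with plasmacytoid dendritic cell markers and also induced by interferon in other cells, rose by 2.03 on the log2 scale (limma adjusted p = 2.1e-06), while Siglech, which defines those cells, had group means near -1.96. No cause of these values was tested.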
